A study of Mus musculus with 79 samples.

Results

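The 10 genes described here are markers of astrocytes, Gfap, Aqp4, Slc1a2, Slc1a3, Aldh1l1, S100b, Gja1, Gjb6, Glul and Kcnj10. They were chosen by name, and each symbol matched 1 of the 55471 gene identifiers of the count table. All 10 passed the filter on low counts in both regions. They were measured by bulk RNA sequencing in 79 libraries of 40 male wild-type CD-1 (ICR) mice, an outbred stock. The age of the mice is given as 9 to 10 weeks, and the paper does not state the step of the experiment it refers to. The libraries came from punches of the medial prefrontal cortex (mPFC, 39 libraries) and the ventral hippocampus (vHipp, 40 libraries). CSDS mice were put into the cage of a dominant resident on each of 21 days of chronic social defeat and went back to their own cage mates each time, while CTRL mice stayed in their groups. All mice, CTRL and saline mice included, were then moved to a social box, and 1 intraperitoneal injection of (R,S)-ketamine (10 mg/kg) or of saline was given 7 days before tissue was taken. Each of the 4 groups held 10 mice, and ketamine-treated CSDS mice gave 9 libraries of the mPFC. Mice lived in groups of 4 of the same stress condition, and the labels do not name the group, so it could not enter the tests. Social rank was not used.

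Astrocytes are the glia that line synapses, blood vessels and the brain surface. They take up glutamate and potassium released by firing neurons, turn glutamate into glutamine, and pass ions and metabolites to each other through gap junctions. The markers fall into these roles. GFAP is the intermediate filament of astrocytes, abundant below the pia, in white matter and in the hippocampus and sparse in deeper cortical gray matter. S100B is a small calcium-binding protein, found in astrocytes and also in some oligodendrocytes. Slc1a2 and Slc1a3 encode the glutamate transporters GLT-1 and GLAST, and Glul encodes glutamine synthetase. Kcnj10 encodes the potassium channel Kir4.1 and Aqp4 the water channel of the end feet. Gja1 and Gjb6 encode the connexins Cx43 and Cx30. Aldh1l1 encodes a folate enzyme used as a marker of astrocytes across brain regions.

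Promoter sequences were taken from RefSeq (GRCm38.p6) as the 250 bases before the annotated start. They are shown for Gfap, which varied most between mPFC libraries, for Aldh1l1, the member with the largest excess in the mPFC, and for S100b, the member with the largest excess in the vHipp in the fit without pairing by mouse. Capitals mark TTGGC, the core of nuclear factor I sites, on either strand, and the Gfap and Aldh1l1 windows hold none.
Gfap, chr11:102897201-102897450, minus strand: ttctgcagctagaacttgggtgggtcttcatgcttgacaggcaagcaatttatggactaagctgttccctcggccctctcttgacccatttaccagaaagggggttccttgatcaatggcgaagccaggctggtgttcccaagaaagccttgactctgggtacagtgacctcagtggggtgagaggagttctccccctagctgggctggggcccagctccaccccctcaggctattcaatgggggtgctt
Aldh1l1, chr6:90550543-90550792, plus strand: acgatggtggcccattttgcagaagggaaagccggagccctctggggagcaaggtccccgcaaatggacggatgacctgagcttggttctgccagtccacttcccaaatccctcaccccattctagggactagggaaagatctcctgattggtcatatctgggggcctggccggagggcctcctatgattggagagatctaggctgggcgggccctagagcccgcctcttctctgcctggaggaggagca
S100b, chr10:76253586-76253835, plus strand: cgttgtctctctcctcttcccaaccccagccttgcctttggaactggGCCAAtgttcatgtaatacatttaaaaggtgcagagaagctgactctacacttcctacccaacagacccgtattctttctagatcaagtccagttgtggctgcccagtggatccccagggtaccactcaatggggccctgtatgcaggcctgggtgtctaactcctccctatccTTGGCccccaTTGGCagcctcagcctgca
The windows of 9 members were searched on both strands for 4 short motifs. TTGGC was found 3 times in S100b, 2 times in Glul and 1 time each in Kcnj10 and Slc1a2, so in 4 of 9 members, and 41.5% of the 32851 promoter windows of the same length hold it. The STAT motif TTCNNNGAA, the TATAAA box and ACAAT, the core of SOX sites, were each found in Slc1a3 and in no other member (7.02%, 12.4% and 27.7% of all windows). None of these motifs contains another, and a match is a description of letters only. The start used for Gfap and Aldh1l1 lies inside the gene span of the annotation that was used for names, chr11:102887336-102900912 and chr6:90486427-90600203, and the S100b start lies just before its span, chr10:76253853-76261159.

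Total counts lay between 11726129 and 41767119 per library. The least counted member, Gjb6, had 402 counts or more in every library, and the most counted, Slc1a2, reached 117475. The punches carried the genes of their regions: 7 of 7 cortical genes were higher in the mPFC, and 8 of 9 hippocampal genes were higher in the vHipp (adjusted p under 0.05 by edgeR). One library stood apart in the markers themselves. The vHipp library of mouse 11, a ketamine-treated CSDS mouse, had the highest value of all 40 vHipp libraries for 10 of 10 members. Its markers summed to 14132 CPM, the count scaled by TMM library size, against 4718 to 8725 in the other vHipp libraries. In the same library mitochondrial genes took 8.93% of counts (2.96 to 5.80% elsewhere), and the summed microglial (744 against at most 456 CPM), endothelial (484 against 358), mural (286 against 190) and oligodendrocyte precursor (OPC) markers (308 against 236) were also the highest of the region, as were those of stem cells and radial glia (284 against 189) and, by a small margin, of neurons (16014 against 15997). Its sum of transport partners and paralogs (3109 CPM) was the lowest of the region, where the others had 3363 or more. Its oligodendrocyte markers (2344 CPM) lay inside the range of the others, 1154 to 4046, and its total of 13659739 counts was the lowest of its group. The mPFC library of the same mouse was not unusual, ranking between 4 and 31 of 39 over the members. In the vHipp, mouse 17 of the same group was among the 5 highest libraries for 10 of 10 members, and mouse 20 for 8 of 10. The markers of mice 17, 20 and 14 summed to 8725, 7839 and 7109 CPM, against a group median of 5939. These libraries stayed in the fits without mouse 11. Main regional, stress and ketamine comparisons of the members that hold the vHipp library of mouse 11 are given with and without it. This alternative was added after its values were seen.

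**Figure D1:**
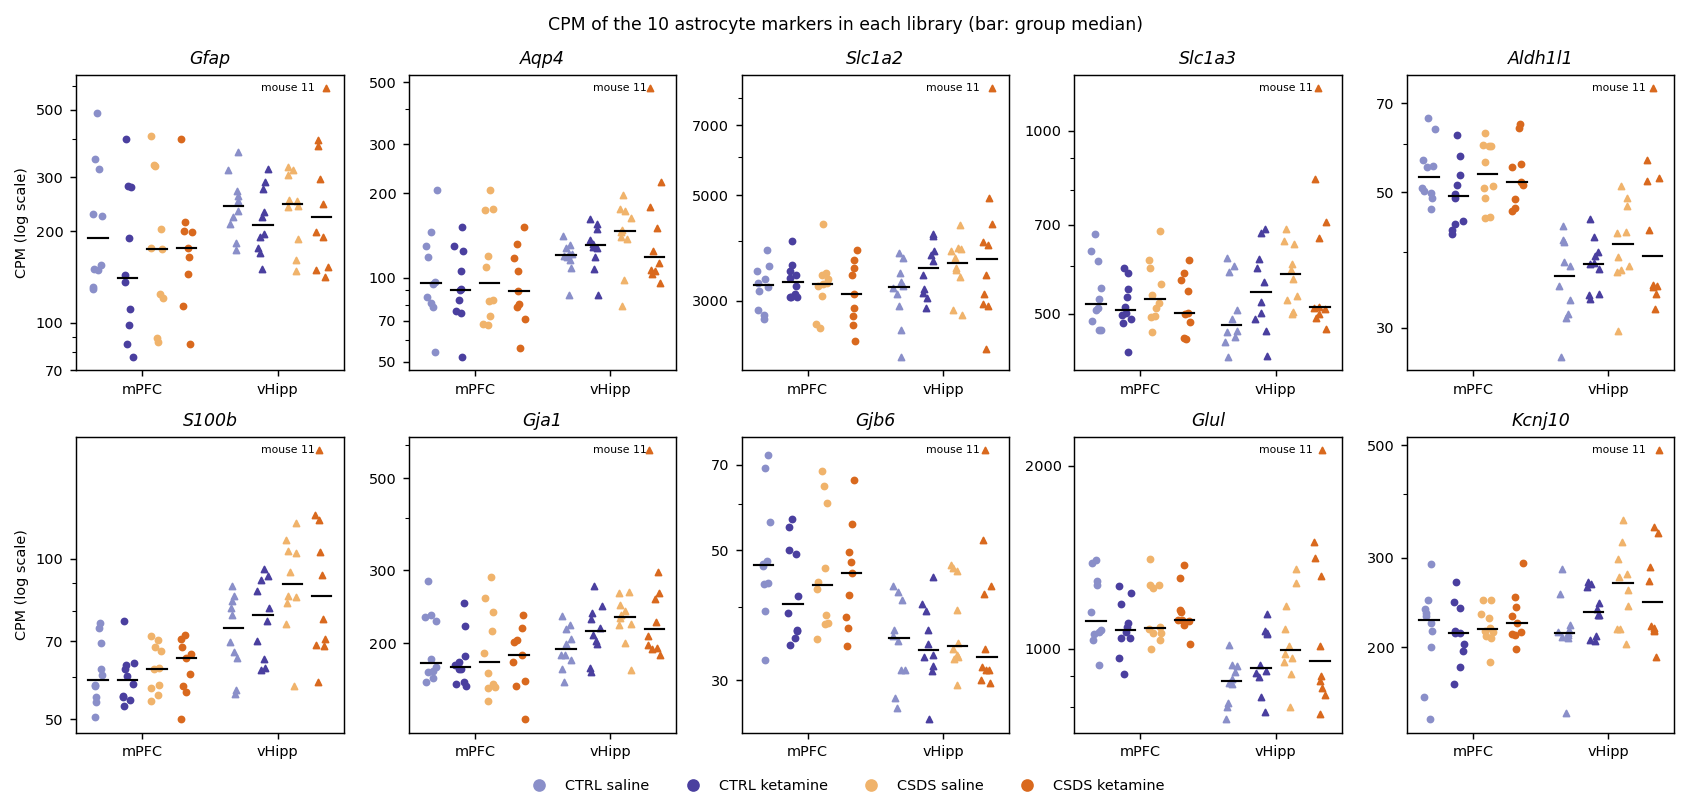
CPM on a log axis for each marker in every library, by region, stress group and treatment, with circles for mPFC, triangles for vHipp and bars for group medians. The vHipp library of mouse 11 is the highest triangle in all 10 panels.

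The markers span a wide range of levels. Per kilobase of summed exon length, the highest in the mPFC was Glul at 302 ± 34.6 CPM per kb (SD, n = 39), followed by Slc1a2 at 247 ± 30.0. In the vHipp the order of these genes was the other way, Slc1a2 at 271 ± 73.0 and Glul at 268 ± 66.9 (SD, n = 40), or 262 ± 42.7 and 261 ± 47.7 without mouse 11 (SD, n = 39). The exchange is within the spread of the vHipp, where Slc1a2 was above Glul in 24 of 40 libraries, while in the mPFC Glul was above Slc1a2 in 39 of 39. The lowest member in both regions was Aldh1l1, at 11.7 ± 1.43 and 8.91 ± 1.92 CPM per kb. Between these, Slc1a3 came next to the top (62.5 and 66.9 CPM per kb), and Gfap, S100b and Kcnj10 lay close together at 47.8, 41.7 and 40.9 in the mPFC. The order of those genes was not stable between mPFC libraries, since Gfap was above S100b in 19 of 39 and S100b above Kcnj10 in 21 of 39. Gja1, Gjb6 and Aqp4 lay between 16.9 and 18.7 CPM per kb in the mPFC and were likewise not ordered beyond the spread (26 and 23 of 39 libraries in the stated order). In all, the 10 genes took 0.577% of counts in the median mPFC library and 0.583% in the median vHipp library.

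Gfap was the most variable member in the mPFC. Its level ranged from 77.3 to 489 CPM with a median of 175, a 6.33-fold range and a coefficient of variation of 52.4%. Aqp4 followed, from 52.1 to 205 CPM (37.3%), then Gjb6 (23.1%) and Gja1 (19.8%). The transporters, Glul, Aldh1l1, S100b and Kcnj10 varied by 11.4 to 13.8%. In the vHipp, Gfap ranged from 141.1 to 589 CPM (median 236), and the other members varied by 21.5 to 44.3% (Aqp4 the most), with the library of mouse 11 as the highest value of each. Without that library Gfap reached 399 CPM, the coefficient of Aqp4 was 23.2%, and those of the 10 members lay between 14.8% (Gja1) and 28.6% (Gfap).

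The first comparison asked where in the brain the markers differ. Regions were compared in 1 fit of all 79 libraries as the mean of the 4 mPFC groups minus the mean of the 4 vHipp groups, by the quasi-likelihood F test of edgeR, adjusted by Benjamini-Hochberg over 31534 genes. Aldh1l1, Gjb6 and Glul were higher in the mPFC, and S100b, Aqp4, Gja1, Kcnj10 and Slc1a2 were higher in the vHipp. These are 8 of 10 members, 3 of them higher in the mPFC and 5 higher in the vHipp. Over all genes, 48.9% passed the same threshold, 24.5% higher in the mPFC and 24.4% higher in the vHipp, so the members' share is to be read against that background. The median LFC (log2 fold change) of the members was -0.16, and that of all genes tested was 0.00. In bulk tissue, fewer astrocytes and less RNA of a marker per astrocyte cannot be told apart.

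Aldh1l1 ranged from 42.7 to 66.3 CPM in the mPFC (median 51.3) and from 26.9 to 74.2 in the vHipp (median 38.2). The regions overlap, but 36 of 39 mice with both libraries had more in the mPFC. The LFC was 0.39 (SE 0.05), or 1.31-fold, with an adjusted p of 4.44e-10. Gjb6, the Cx30 gene, ranged from 32.4 to 72.8 CPM (median 44.2) in the mPFC and from 25.8 to 74.1 (median 34.2) in the vHipp. It was higher in the mPFC in 32 of 39 mice, with an LFC of 0.33 (SE 0.07, adjusted p = 4.20e-05, edgeR). Glul ranged from 910 to 1406 CPM (median 1101) in the mPFC and from 765 to 2122 (median 938) in the vHipp. Its difference was small, an LFC of 0.17 (SE 0.05, adjusted p = 0.00756, edgeR), and 28 of 39 mice had more in the mPFC.

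S100b ranged from 50.0 to 76.6 CPM in the mPFC (median 60.9) and from 55.7 to 160 in the vHipp (median 81.7). It was lower in the mPFC in 35 of 39 mice, and the vHipp level was 1.36-fold higher (LFC -0.45, SE 0.06, adjusted p = 3.52e-10, edgeR). Aqp4, which had 52.1 to 205 CPM in the mPFC (median 90.8) and 79.1 to 477 in the vHipp (median 128.5), was higher in the vHipp in 28 of 39 mice. Its LFC was -0.42 (SE 0.11, adjusted p = 0.000734, edgeR). Gja1, the partner of Gjb6 in astrocyte gap junctions, went the other way from it: 131.4 to 290 CPM (median 180) in the mPFC against 162 to 584 (median 217) in the vHipp. Its LFC was -0.24 (SE 0.07, adjusted p = 0.00200, edgeR), and 26 of 39 mice had more in the vHipp. Kcnj10 (LFC -0.18, SE 0.06, adjusted p = 0.00586) and Slc1a2 (LFC -0.14, SE 0.06, adjusted p = 0.0382) differed by less, with 26 and 25 of 39 mice higher in the vHipp. Gfap had an LFC of -0.31 (SE 0.14, adjusted p = 0.0548) and Slc1a3 one of -0.10 (SE 0.05, adjusted p = 0.0984), so neither passed in this fit.

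The regions share mice, and the fit with the mouse number as a replicate block, a paired test, called 9 of 10 members and 49% of all genes. It added Gfap, with an LFC of -0.43 (SE 0.14, adjusted p = 0.00993, edgeR), and the member with the largest excess in the vHipp was then Aqp4 (-0.45, against -0.43 for S100b). Gfap also passed by limma-voom (adjusted p = 0.00894), and without set 1 or set 2. Without the vHipp library of mouse 11, 7 of 10 members and 49.5% of all genes were called: Slc1a2 no longer passed (LFC -0.09, SE 0.05, adjusted p = 0.0995, edgeR), and the LFC of Aqp4 went to -0.33, that of Gja1 to -0.18 and that of Aldh1l1 to 0.42. Leaving out each of 5 sets of 8 mouse numbers left between 5 and 9 members called, against 47.1, 45.8, 47.8, 45.6 and 46.2% of all genes without sets 1 to 5. A set is a run of 4 CTRL and 4 CSDS mouse numbers. The lowest count came without set 4 and without set 5, where Gja1, Kcnj10 and Slc1a2 were not called. Slc1a2 was not called without set 3 either, and Glul was not called without set 1 (LFC 0.11, adjusted p = 0.163, edgeR) or set 2.

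The regions were also compared within each group, and the groups were not tested against each other. In saline-treated CTRL mice, 3 members were called, Aldh1l1 (LFC 0.58, SE 0.10), Glul (0.39, SE 0.11) and Gjb6 (0.50, SE 0.14), all higher in the mPFC, where 29% of all genes were called. The other 7 had LFCs between -0.25 (S100b) and 0.10 (Slc1a3). In ketamine-treated CTRL mice (29.2% of all genes called) and in saline-treated CSDS mice (28%), the same members, Aldh1l1 and S100b, were called. In ketamine-treated CSDS mice (27.2%), 5 members were called, all higher in the vHipp, with LFCs of -0.79 for Aqp4, -0.59 for S100b, -0.51 for Gja1, -0.38 for Slc1a2 and -0.30 for Slc1a3. This last group holds the vHipp library of mouse 11. Without that library (27.4% of all genes called) its called members were Aldh1l1 (0.36, SE 0.10), Gjb6 (0.35, SE 0.14) and S100b (-0.46, SE 0.11), and Aqp4 had an LFC of -0.44 (SE 0.20, adjusted p = 0.0925, edgeR). The same fit also called Gjb6 (0.35) and Kcnj10 (-0.27) in saline-treated CSDS mice (28.8% of all genes), whose libraries were unchanged but share the estimate of the spread.

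**Figure D2:**
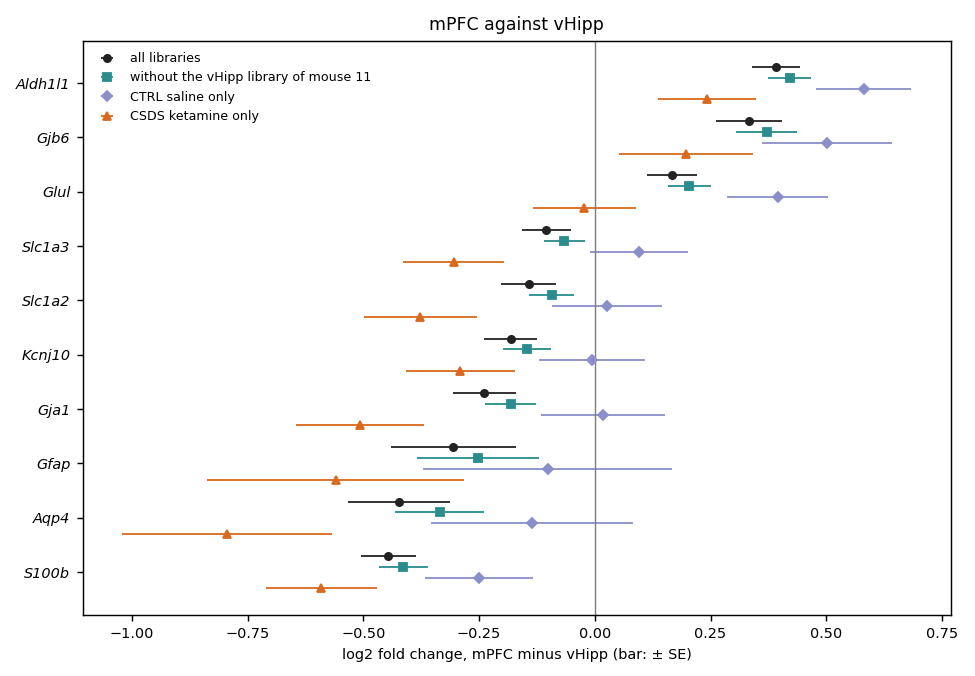
LFC of each marker, mPFC minus vHipp, with its SE, for all libraries, without the vHipp library of mouse 11, and in saline-treated CTRL and ketamine-treated CSDS mice. Aldh1l1, Gjb6 and Glul lie right of 0 in all libraries and in saline-treated CTRL mice, and S100b lies left of 0 in each fit shown.

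Other lists were also compared between the regions, where 24.5% of all genes were called higher in the mPFC and 24.4% higher in the vHipp. Of 42 further astrocyte genes, 9 were called higher in the mPFC and 24 higher in the vHipp, with a median LFC of -0.15 (32 called and a median of -0.13 without mouse 11). Those with the largest LFC were Chrdl1, a secreted antagonist of BMP signaling made by cortical astrocytes (15.3 against 3.41 CPM on average, LFC 2.16, SE 0.08), the bicarbonate transporter gene Slc4a4 (148.9 against 240 CPM, LFC -0.70, SE 0.06) and the phospholipase gene Pla2g7 (56.8 against 90.3 CPM, LFC -0.67, SE 0.08). Of 33 genes known to rise in reactive astrocytes, 20 were called higher in the mPFC and 7 higher in the vHipp (27 called without mouse 11 too). Several of these are also expressed in meningeal and vascular cells, and the largest differences were Cd109 (2.01 against 13.2 CPM, LFC -2.71, SE 0.21), Serpina3n (38.5 against 123.01 CPM, LFC -1.68, SE 0.05) and Lcn2 (0.446 against 0.221 CPM, LFC 1.59, SE 0.61). Lcn2 was at 0 in some libraries of both regions and Cd109 in some of the mPFC, and an LFC, which averages log levels over groups, need not equal the log ratio of these means. Of 28 genes for transport partners and paralogs of the members, 8 were called in each direction (16 in all without mouse 11). Gjb2, the connexin Cx26 gene of meninges and astrocytes, had 17.6 CPM in the mPFC and 5.29 in the vHipp (LFC 1.75, SE 0.14), the aquaporin gene Aqp11 had 14.5 and 40.9 (LFC -1.50, SE 0.04), and Kcnj9, a neuronal potassium channel gene, had 198 and 94.02 (LFC 1.07, SE 0.05).

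Markers of other cells also differed between the punches. Meningeal markers were called higher in the mPFC for 5 of 6 genes (median LFC 0.98), with a summed level of 27.0 to 226 CPM there and 19.6 to 104.6 in the vHipp. Mural markers were called higher in the mPFC for 4 of 6, endothelial for 3 of 8 (and lower for 1), microglial for 3 of 10 and hemoglobin genes for 5 of 5. Without mouse 11 more of these were called in either direction, 7 of 8 endothelial, 6 of 10 microglial and 5 of 6 mural markers, while 5 of 6 meningeal and 5 of 5 hemoglobin genes were. Over all genes, 48.9% were called with all libraries, 24.5% higher in the mPFC, and 49.5% were called without mouse 11. Oligodendrocyte markers were called for 0 of 10, and their summed level spread from 597 to 6426 CPM in the mPFC and from 1154 to 4046 in the vHipp. None of these markers was at 0 in every library of a region. Their part in the regional differences of the astrocyte markers was not tested.

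The second comparison asked what chronic stress left behind in the markers. In the vHipp, all 10 members had a higher fitted level in CSDS than in CTRL mice when saline and ketamine mice were pooled, with LFCs from 0.14 (Gfap and Gjb6) to 0.33 (Aqp4) and a median of 0.24. None passed adjustment over 28991 genes: edgeR called 0 genes in all (0% of those tested), and the lowest adjusted p of a member was 0.350 (Kcnj10). At an unadjusted p under 0.05, 7 of 10 members were higher and 0 lower. Over all genes, 9.71% had such a p, and 5.31% had one in the higher direction, and the median LFC of all genes was 0.00. At an adjusted p, DESeq2 called 14 genes, none of them a member, and limma-voom called 0. Members varied together between vHipp libraries, so their like signs are not independent.

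Kcnj10, with the smallest p, ranged from 148.6 to 285 CPM in 20 CTRL mice (median 219) and from 191 to 489 in 20 CSDS mice (median 265). The groups overlapped, 7 CSDS mice lying above every CTRL mouse. The LFC was 0.27 (SE 0.09, unadjusted p = 0.00435 and adjusted p = 0.350, edgeR). S100b had 55.7 to 95.7 CPM (median 77.4) in CTRL mice and 57.8 to 160 (median 89.2) in CSDS mice, with 8 CSDS mice above all CTRL mice. Its LFC was 0.29 (SE 0.10, unadjusted p = 0.00494, adjusted p = 0.359, edgeR). Glul had 765 to 1142 CPM (median 912) in CTRL mice and 781 to 2122 (median 994) in CSDS mice, again with overlap and with 7 CSDS mice above the CTRL range. Its LFC was 0.27 (SE 0.09, unadjusted p = 0.00518, adjusted p = 0.359, edgeR). Aldh1l1, Gja1, Aqp4 and Slc1a3 had unadjusted p between 0.0120 and 0.0245, with LFCs of 0.22, 0.25, 0.33 and 0.20. Slc1a2 (LFC 0.19, SE 0.10), Gjb6 (0.14, SE 0.09) and Gfap (0.14, SE 0.14) did not reach an unadjusted p of 0.05. The CSDS values of Gfap, 141.1 to 589 CPM (median 244), covered the whole CTRL range of 150 to 364 (median 226).

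Without the vHipp library of mouse 11, all 10 LFCs were still above 0, and their median went from 0.24 to 0.15. Then 5 of 10 members had an unadjusted p under 0.05, namely Kcnj10 (LFC 0.20, SE 0.08, p = 0.0110), Glul (0.20, SE 0.08, p = 0.0134), S100b (0.23, SE 0.09, p = 0.0136), Aldh1l1 (0.17, SE 0.08, p = 0.0316) and Gja1 (0.14, SE 0.06, p = 0.0320). Over all genes 8.53% had such a p in this fit, and 4.49% in the higher direction. The smallest adjusted p was 0.502, from edgeR's quasi-likelihood test. The LFC of Aqp4 went from 0.33 to 0.16, that of Slc1a2 from 0.19 to 0.10, that of Gjb6 from 0.14 to 0.07 and that of Gfap from 0.14 to 0.04. Leaving out set 5 of the mouse numbers left 3 members with an unadjusted p under 0.05 (Gja1, Kcnj10 and S100b; 6.86% of all genes, 3.35% higher), and leaving out set 2 gave 8 (10.2% of all genes, 5.2% higher).

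The comparison was also made within each treatment. In saline-treated mice 9 of 10 members were above 0 (Gfap at -0.03), and S100b (LFC 0.32, SE 0.14, p = 0.0264) and Kcnj10 (0.29, SE 0.13, p = 0.0250) had an unadjusted p under 0.05, where 5.57% of all genes did and 3.07% did in the higher direction. In ketamine-treated mice 10 of 10 were above 0, and Glul (0.28, SE 0.13, p = 0.0340), Aldh1l1 (0.24, SE 0.12, p = 0.0479) and Gja1 (0.28, SE 0.14, p = 0.0478) had such a p (5.42% of all genes, 2.81% in the higher direction). Adjusted p were 0.866 or higher in both (edgeR). The saline groups do not hold mouse 11 but share the estimate of the spread with it: in the fit without its library, 6 of 10 members had an unadjusted p under 0.05 with saline (6.35% of all genes, 3.69% in the higher direction), and the smallest adjusted p was 0.654 (edgeR). The median LFC was 0.22 in that fit and 0.21 with the library. In the ketamine groups without its library, 0 members and 4.14% of all genes had an unadjusted p under 0.05, and the LFCs lay between 0.02 (Slc1a2) and 0.14 (S100b and Glul). Leaving out each set gave 0 members (without set 4, where 1254 of 28195 genes had such a p) to 4 (without set 3, 1420 of 28223 genes) with saline. With ketamine it gave 0 (without set 3 or set 5, 1126 of 28223 and 1198 of 28275 genes) to 7 (without set 2, 1436 of 28371 genes). Fits of only the 2 groups compared gave 6 members with saline (1570 of 26643 genes) and 0 with ketamine (1204 of 26592 genes). S100b had medians of 74.2 CPM with saline and 78.6 with ketamine in CTRL mice, against 89.9 and 85.1 in CSDS mice.

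In the mPFC, 0 members passed the same comparison. Member LFCs lay between -0.06 (Gfap, SE 0.22) and 0.06 (Kcnj10, SE 0.07), 8 above and 2 below 0, the smallest unadjusted p was 0.341 (Aldh1l1), and 3.52% of all 28993 genes had an unadjusted p under 0.05. Kcnj10 had 144.5 to 291 CPM in CTRL mice (median 215) and 187 to 293 in CSDS mice (median 218), and the ranges overlap. By treatment, no member had an unadjusted p under 0.05 with saline (2.94% of all genes) or with ketamine (5.8% of all genes, smallest member p = 0.126). The difference between the regions was tested directly as the mPFC stress effect minus the vHipp one. It was below 0 for 10 of 10 members, from -0.12 (Gjb6) to -0.27 (Aqp4), and S100b (-0.23, SE 0.12, unadjusted p = 0.0485) and Glul (-0.22, SE 0.11, unadjusted p = 0.0494) had an unadjusted p under 0.05, against 6.86% of all genes, 3.33% in the lower direction. No member passed adjustment (lowest adjusted p = 0.724, edgeR). With the mouse as a replicate block 3 members did at an unadjusted p (S100b 0.0284, Slc1a2 0.0403 and Kcnj10 0.0436; 7.58% of all genes, 4.63% higher and 2.95% lower), and without the vHipp library of mouse 11 none did (6.08% of all genes). The count was 8 of 10 without set 2, where 2175 of 30924 genes had such a p, and 0 without set 1, 3, 4 or 5 and by limma-voom.

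**Figure D3:**
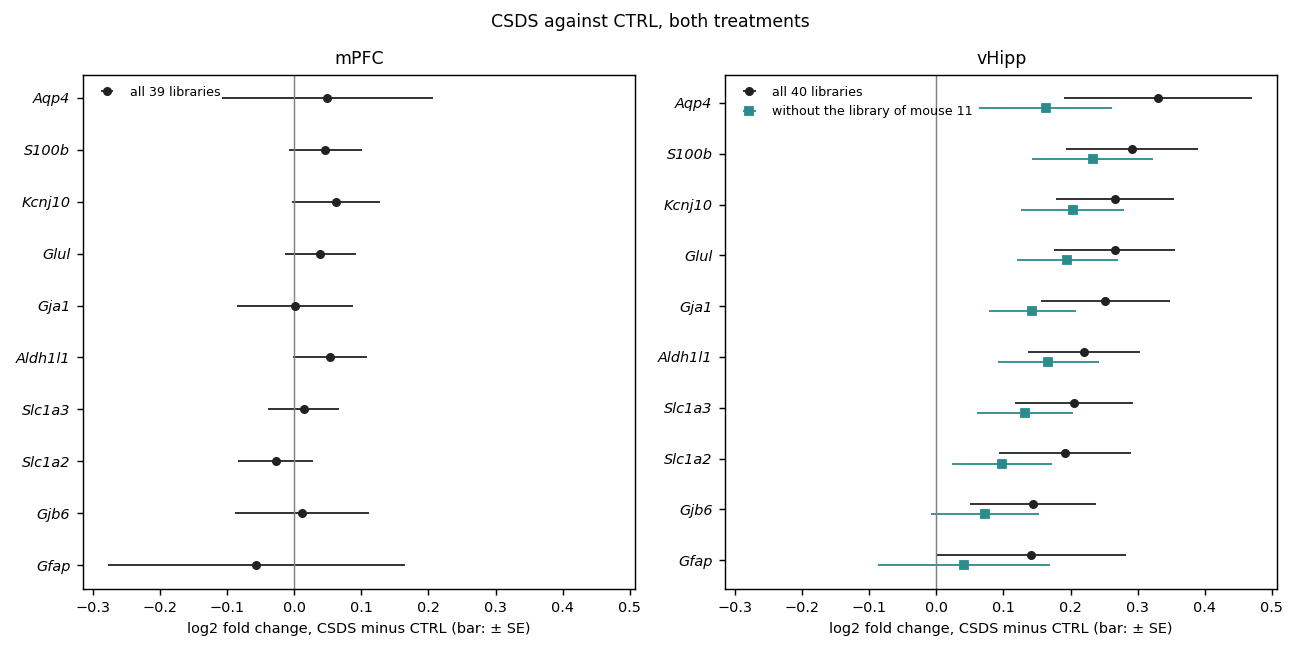
LFC of each marker, CSDS minus CTRL mice over both treatments, with its SE, in the mPFC and in the vHipp, the latter with and without the library of mouse 11. All vHipp points lie right of 0, and mPFC values lie on both sides of it.

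Of the further astrocyte genes in the vHipp, 24 of 42 had an unadjusted p under 0.05 and were higher in CSDS mice, 0 were lower, and the median LFC was 0.22 (18 of 42 and 0.14 without mouse 11). Of the 33 genes of reactive astrocytes, 1 was higher and 1 lower, with a median LFC of 0.01. Of the 28 transport partners and paralogs, 5 were higher and 2 lower. No gene of these lists passed adjustment (edgeR). Over all genes, 9.71% had an unadjusted p under 0.05 here, 5.31% in the higher direction (8.53% and 4.49% without mouse 11).

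Other measures differed between the same vHipp libraries. At an unadjusted p under 0.05, microglial markers were higher in CSDS mice for 7 of 10 genes (summed level 224 to 360 CPM in CTRL and 267 to 744 in CSDS mice), endothelial for 7 of 8 (186 to 267 and 197 to 484), mural for 4 of 6, OPC for 3 of 5 and choroid plexus and ependymal for 3 of 8 (69.1 to 142.8 and 82.2 to 956, with Ttr, Folr1, Ccdc153 and Tmem212 at 0 in some libraries). The 956 CPM came from 1 library, that of mouse 9, and the next highest had 196. Oligodendrocyte and meningeal markers were so for 0 of 10 and 0 of 6. The mitochondrial share was 2.96 to 4.36% (median 3.67%) in CTRL mice and 3.27 to 8.93% (median 4.07%) in CSDS mice, and 18 of 20 CSDS libraries lay above the CTRL median. Hippocampal regional markers were lower for 3 of 9 and higher for 2. Without mouse 11, microglial, endothelial, mural and OPC counts were 5 of 10, 4 of 8, 4 of 6 and 1 of 5. The share of all genes with an unadjusted p under 0.05 was 9.71% (5.31% higher) with mouse 11 and 8.53% (4.49% higher) without it. The part of cell makeup and of the punch in the stress pattern of the members was not tested.

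The third comparison asked whether 1 dose of ketamine left a trace after 7 days. With all libraries, no member had an unadjusted p under 0.05 in any of the comparisons of ketamine with saline or in the interaction with stress, in either region. Over all genes, edgeR called 0 at an adjusted p, and the shares at an unadjusted p under 0.05 were, in the mPFC, 3.64% in CTRL mice, 4.32% in CSDS mice, 3.07% in both together and 5.31% for the interaction. In the vHipp these were 2.88%, 2.9%, 3.39% and 2.84%. DESeq2 and limma-voom called 0 genes in each as well. Under the alternatives run, members with an unadjusted p under 0.05 were Aldh1l1 and Gfap, lower in the mPFC without set 1 in CTRL mice and in both stress groups together, Aldh1l1 in the mPFC of CTRL mice with the set as covariate, and Slc1a2 (without set 1 or set 4) and Gja1 (without set 1), higher in the vHipp of both stress groups together. Their adjusted p were 0.977 or higher (edgeR), and each alternative tested all 10 members again. In the mPFC of CTRL mice, 9 of 10 members had a lower fitted level with ketamine (median LFC -0.12, against -0.0045 over all genes). Aldh1l1 had the smallest p, with 47.1 to 66.3 CPM with saline (median 52.9) and 42.7 to 62.1 with ketamine (median 49.3), overlapping ranges and an LFC of -0.14 (SE 0.08, unadjusted p = 0.0758, adjusted p = 0.997, edgeR). In the vHipp over both stress groups, with mouse 11 included, 10 of 10 LFCs were above 0, from 0.01 to 0.17, with a median of 0.12. Without its library 7 of 10 were above 0, with a median of 0.04. In CSDS mice alone the count went from 10 of 10 (median 0.14) to 2 of 10 (median -0.03), so the direction there rested on this library. In the interaction the count went from 8 to 1 of 10. The median LFC of all genes was 0.00 in each of these vHipp fits, with and without the library. Members varied together between libraries, so like signs among them are not independent. With all libraries the smallest p was that of Slc1a2, which had medians of 3208 and 3516 CPM with saline and ketamine in CTRL mice and 3600 and 3663 in CSDS mice, with an LFC of 0.17 (SE 0.10, unadjusted p = 0.0822, adjusted p = 1.00, edgeR). Gfap in the mPFC of CTRL mice had 130 to 489 CPM with saline (median 190) and 77.3 to 401 with ketamine (median 140). Its ranges overlap, and its LFC of -0.38 (SE 0.31) had an unadjusted p of 0.226 (edgeR).

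Within groups, most markers varied together from mouse to mouse. Values were log2 CPM (pseudocount 0.1) minus the group mean, and all genes of a library share its depth and its punch. The 90 correlations, 45 pairs in each region, were tested by permutation with 100000 resamples, two-sided, for which 1e-05 is the smallest p that can be given, and the p-values are not adjusted. In the mPFC, 27 of 45 pairs had a Pearson r above 0.5, with a median of 0.55. Aqp4 and Gja1 were closest (r = 0.91, Spearman's rho = 0.89, permutation p = 1e-05 for both, and r = 0.89 without the 2 libraries farthest from the median), followed by Gfap and Aqp4 (r = 0.90, rho = 0.90, permutation p = 1e-05 for both, and r = 0.90 without 2). S100b stood outside this pattern in the mPFC: its r with the other 9 members lay between -0.39 (Slc1a2) and 0.38 (Glul), with a median of 0.12. The negative r with Slc1a2 (permutation p = 0.0142, rho = -0.36 with p = 0.024) became -0.32 (p = 0.0541) without the 2 farthest libraries.

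In the vHipp, 44 of 45 pairs had r above 0.5, with a median of 0.77, or 0.66 without the 2 libraries farthest from the median. Slc1a3 and Gja1 were closest (r = 0.92, rho = 0.92, permutation p = 1e-05 for both, and r = 0.88 without 2). S100b had r between 0.50 and 0.91 with the other members there, the highest with Aldh1l1 (rho = 0.90, permutation p = 1e-05 for both, and r = 0.88 without the 2 farthest libraries). The same pair had r = 0.14 (permutation p = 0.391) and rho = 0.11 (p = 0.494) in the mPFC. The difference between the regions in these correlations was not tested.

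**Figure D4:**
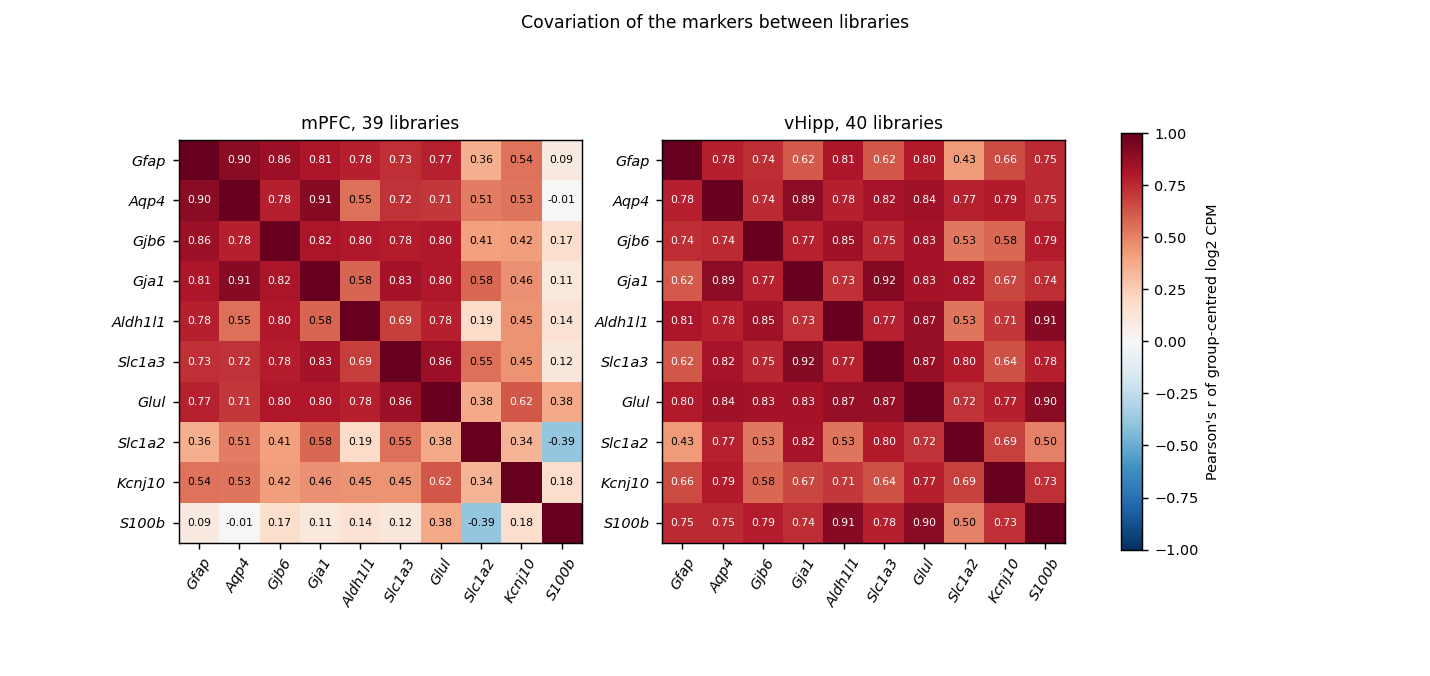
Pearson's r between markers over libraries of the mPFC and of the vHipp, from log2 CPM minus the group mean, with red for positive and blue for negative r. The S100b row is pale in the mPFC (-0.39 to 0.38) and red in the vHipp (0.50 to 0.91).

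Members were also correlated with the markers of 4 other cell types. In the mPFC, Gfap followed the mean of 6 meningeal markers at r = 0.93 (rho = 0.91, permutation p = 1e-05 for both, and r = 0.92 without the 2 farthest libraries), Aqp4 at 0.89 (rho = 0.86) and Gjb6 at 0.86 (rho = 0.84). S100b had r = -0.11 (permutation p = 0.517) and rho = -0.14. With microglial markers the members of the mPFC had a median r of 0.66, led by Glul at 0.84 (rho = 0.85, permutation p = 1e-05 for both), and S100b had r = 0.49 (permutation p = 0.00183), rho = 0.46 and r = 0.43 without the 2 farthest libraries. The mPFC library with the most Gfap, that of mouse 30 at 489 CPM, also had the highest meningeal sum, 226 CPM. In the vHipp, the r of members with meningeal markers had a median of 0.50, and with microglial markers 0.82, led by S100b at 0.93 (rho = 0.94, permutation p = 1e-05 for both, and r = 0.93 without the 2 farthest libraries). With oligodendrocyte markers the median r was 0.22 in the mPFC and 0.38 in the vHipp, and S100b had r = 0.33 (permutation p = 0.041, rho = 0.28, and r = 0.21 without the 2 farthest libraries) and r = 0.55 (permutation p = 0.00021, rho = 0.53, and r = 0.50 without 2). Neuronal markers ran the other way, with median r of -0.45 in the mPFC and -0.36 in the vHipp. Of these correlations, 80 were computed, 10 members with 4 lists in 2 regions, with p-values not adjusted. The part of the other cells in the shared variation was not tested.

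**Figure D5:**
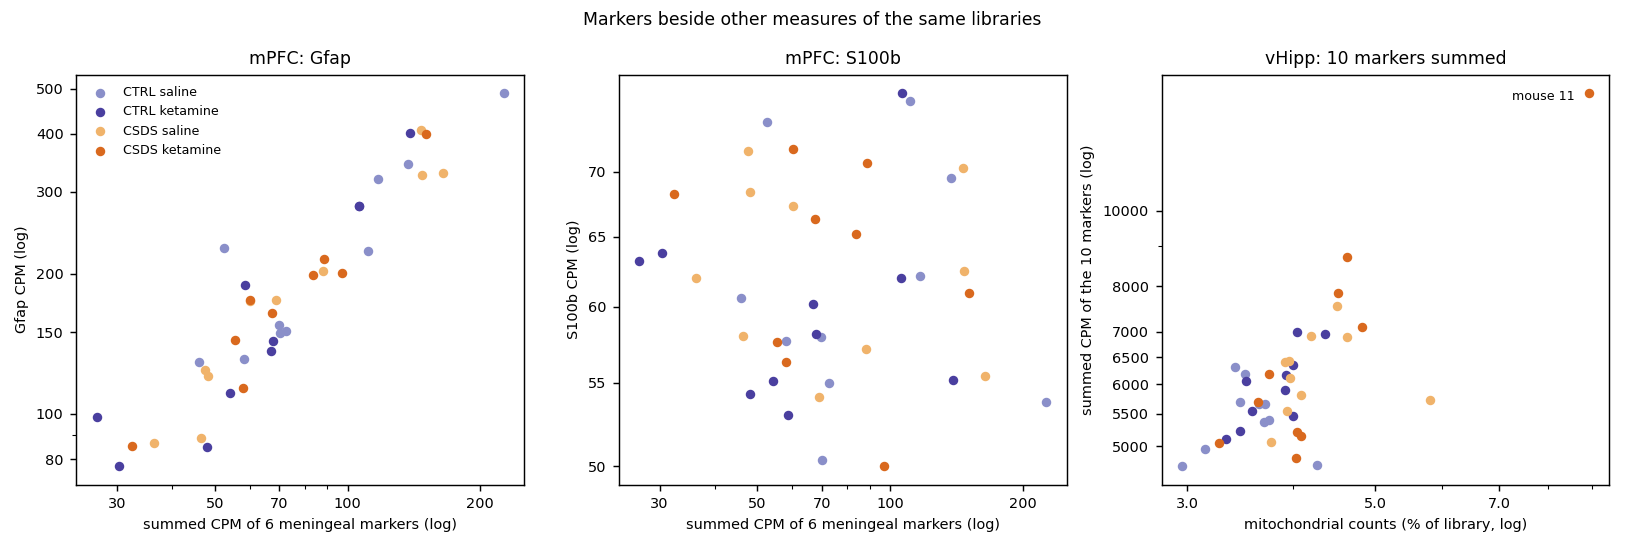
Gfap (left) and S100b (middle) CPM in mPFC libraries against the summed CPM of 6 meningeal markers, and the summed CPM of the 10 markers in vHipp libraries against the share of mitochondrial counts (right), on log axes with 1 point per library colored by group. Gfap climbs along the meningeal axis from 77.3 to 489 CPM, S100b stays between 50.0 and 76.6 CPM, and mouse 11 lies at 8.93% and 14132 CPM.

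The 5 other genes most like the mean of the members were found in each region among genes of at least 1 CPM. In the mPFC, over 15463 genes and 39 libraries, they were Apod (r = 0.95), Pla2g7 (0.94), Timp3 (0.93), Cnn3 (0.93) and Plpp3 (0.92), of which Pla2g7 and Plpp3 were in the list of further astrocyte genes. In the vHipp, over 15396 genes and 40 libraries, they included Acsbg1 (r = 0.95), Ezr (0.94), the gene of a membrane linker in fine astrocyte processes, Msn (0.94) and Nde1 (0.94). Without mouse 11 they included Acsbg1 (0.93), Ezr (0.92), Abhd4 (0.91) and Nde1 (0.91).

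Marker levels in the mPFC were also set against those in the vHipp for 39 mice. With group means removed, r had a median of 0.03 over the 10 members, where the median over 15702 genes was 0.29. The highest was Kcnj10, with r = 0.49 (permutation p = 0.00187) and rho = 0.45 (p = 0.00409). Its r was 0.34 (permutation p = 0.0386) without the 2 mice farthest from the median of the mPFC value. That rule looks at mPFC values only, so it was not aimed at the high vHipp library of mouse 11. These correlations were not run without that library. S100b had r = 0.34 (permutation p = 0.0368) and rho = 0.30 (p = 0.0655). Its r was 0.34 (permutation p = 0.0399) without the 2 mice farthest from its own mPFC median. Gfap had r = -0.20 (permutation p = 0.212) and rho = -0.27 (p = 0.0906), and 98.3% of genes had a higher r. These p-values are for 10 relations and are not adjusted.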

How the data were processed

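Total RNA from frozen 1 mm punches was made into stranded mRNA libraries and sequenced, and the reads were demultiplexed with bcl2fastq 2.20.0.422, per the labels. The authors deposited raw counts per gene for 79 libraries on GRCm38, with no normalization. The aligner and counter are not given in the sources used here. The mPFC of mouse 5 (CSDS, ketamine) was not analysed here. No pair of libraries held identical values.

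Genes with over 10 counts in total and at least 1 count in more than 3 libraries were kept (28993 in the mPFC, 28991 in the vHipp, 31534 across both), scaled by TMM and tested with edgeR 4.0.16 (R 4.3.3) by the quasi-likelihood F test, two-sided, with Benjamini-Hochberg adjustment and a threshold of 0.05. Each region had its own fit with 4 groups, and regions were compared in a fit with 8. CPM were computed from the counts with TMM library sizes. Per kb values use the summed length of annotated exons. The edgeR fit was tested on simulated counts. SciPy 1.17.1 ran the permutation tests.

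The 10 members, the other gene lists and the tests were chosen with earlier results of these data known. In the regional comparison, the 3 genes with the largest LFC among those called were to be named from each list of astrocyte, reactive and partner genes, and the 5 genes most like the members' mean in each region. One gene that this rule names is not reported here.

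The same mouse gave both regions, so the mouse number pairs libraries. Deviations of a mouse's libraries from their group means correlated over 15702 genes with r from 0.00547 to 0.613 (median 0.27, above 0.1 in 36 of 39 mice), against a median of -0.00279 between different mice. Alternatives were the mouse as a block, DESeq2 1.42.0, limma-voom (limma 3.58.1), RLE scaling, other filters on low counts, sets of mouse numbers as covariate, and leaving out each set. Leaving out the vHipp library of mouse 11 was added after seeing the data. p-values treat mice as independent, although cage mates shared a social box that the labels do not name.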

Additional observations from a re-analysis of the deposited data

Results flagged for a closer look

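In 9 of 80 combinations of gene, region and group, 1 library lay farther from the rest of its group than Dixon's test allows at 95%, where chance gives about 4. In 6 of them it was the vHipp library of mouse 11 in the ketamine-treated CSDS group. Its value was 477 CPM for Aqp4 (next highest 219), 8388 for Slc1a2 (4921), 1175 for Slc1a3 (833), 584 for Gja1 (298), 74.1 for Gjb6 (52.1) and 489 for Kcnj10 (346).

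The other 3 were high mPFC libraries. Mouse 3 (ketamine-treated CSDS) had 400.3 CPM of Gfap, next to 215 in its group. Mouse 7 (saline-treated CSDS) had 4355 CPM of Slc1a2, next to 3438. Mouse 23 (ketamine-treated CTRL) had 76.6 CPM of S100b, next to 63.8. In 30 tests of a difference between effects, 0 passed adjustment for a member.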

How the results depend on the processing

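The number of members called between the regions was 8 of 10 and lay between 5 (without set 4 or set 5) and 9 when each set of mouse numbers was left out. With the mouse as a replicate block, the paired analysis called 9, adding Gfap, and for the regional difference in the stress effect it called 0, as without the block. The block was run for these comparisons only. No result past the threshold turned its direction. No member passed adjustment in any comparison of stress or ketamine within a region under the alternatives run. Without the vHipp library of mouse 11, an alternative chosen after seeing the data, 7 members were called between the regions and the number with an unadjusted p under 0.05 for stress in the vHipp went from 7 to 5. For ketamine in the vHipp of CSDS mice, the members with an LFC above 0 went from 10 to 2 without it. For stress in the vHipp over both treatments and with all libraries, DESeq2 called 14 genes where edgeR called 0, and the cause was not tested. Every member had 402 counts or more in each library. Gfap had the largest SEs within the mPFC.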
